A study of Danio rerio with 4 samples.

Results

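Thin filament and myosin-binding protein genes were examined in RNA-seq libraries of zebrafish tails. The 4 genes described, out of 32520 in the count table, were *actc1b*, *tnnc1b*, *mybpc2b* and *mybpc3*. They were picked by name from the study's own table of genes that differed between *asxl1*-/- and *asxl1*+/+ tails, a table made from these same libraries. Their differences between the genotypes are therefore given as a description, with no test. The libraries came from wild-type (*asxl1*+/+) and homozygous mutant (*asxl1*-/-) littermates of *asxl1*+/- intercrosses in the AB background, at 3 days postfertilization (dpf) and without treatment. The mutants carry a CRISPR/Cas9 frameshift deletion in *asxl1* that is predicted to truncate the C terminus of the protein, and the labels do not say which of the study's alleles was sequenced. Each of the 4 libraries, 2 per genotype, was a pool of about 20 tails that included the caudal hematopoietic tissue, the embryonic site where blood stem cells expand. In each genotype the labels name a replicate A and a replicate B, with no word on what equal letters have in common. Nothing states that the pools came from separate clutches, so the spread between them may be partly technical.

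Striated muscle contracts when myosin heads of the thick filament pull on actin in the thin filament. The thin filament is a polymer of actin wrapped by tropomyosin and by the troponin complex, whose subunit troponin C binds calcium and so releases the block on myosin. Myosin-binding protein C (MyBP-C) sits on the thick filament, reaches towards actin and modulates how many heads are available. Fast and slow skeletal muscle and heart use different genes for the same parts, and the tail of a zebrafish larva is mostly skeletal muscle and skin.

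The libraries held 19423797 to 26281738 counts, with the 2 *asxl1*-/- libraries shallower than the 2 *asxl1*+/+ libraries, and 19970 genes passed the filter on low counts. All 4 genes passed it, and no library stood apart in scaling factor (0.990 to 1.01) or in the share of counts taken by its top 10 genes (20.8 to 21.5%). As a check of the labels, *asxl1*, on chromosome 23 of GRCz11 from 30730121 to 30752553, had 65.4 and 65.3 CPM (counts scaled to library size) in *asxl1*+/+ replicates A and B, and 57.2 and 57.6 CPM in *asxl1*-/- replicates A and B. It was lower in both mutant libraries (log2 difference −0.19 ± 0.08 SE, adjusted p = 0.9999 by edgeR's quasi-likelihood test). Counts of a frameshift allele cannot show the genotype by themselves.

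Of the 4 genes, *actc1b* was lower in *asxl1*-/- tails (−5.74%), while *mybpc2b* was 24.6% higher, *tnnc1b* 11.7% higher and *mybpc3* 9.69% higher. In each of the 4 genes the CPM of the genotypes did not overlap, which was true of 30.1% of all genes tested. No gene of the 4 was called between the genotypes by edgeR's quasi-likelihood test at an FDR below 0.05, which called 0.0601% of all genes. All 4 had an unadjusted p under 0.05, as did 3.08% of all genes. The count called was also 0 by edgeR's exact test, which called 0.265% of all genes, and 0 by DESeq2, which called 0.135%. It was 4 with the replicate letter in the model, a fit that called 1.51%. The study's own table held 294 genes, the 4 included, and the study names an exact test of edgeR at an FDR below 0.05. The exact test run here called 53 genes and 0 of the 4, and the cause of that gap was not tested. Since the genes were chosen from this contrast, nothing was read from these counts. In pooled tails, fewer cells of a type and less RNA per cell cannot be told apart.

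**Figure D1:**
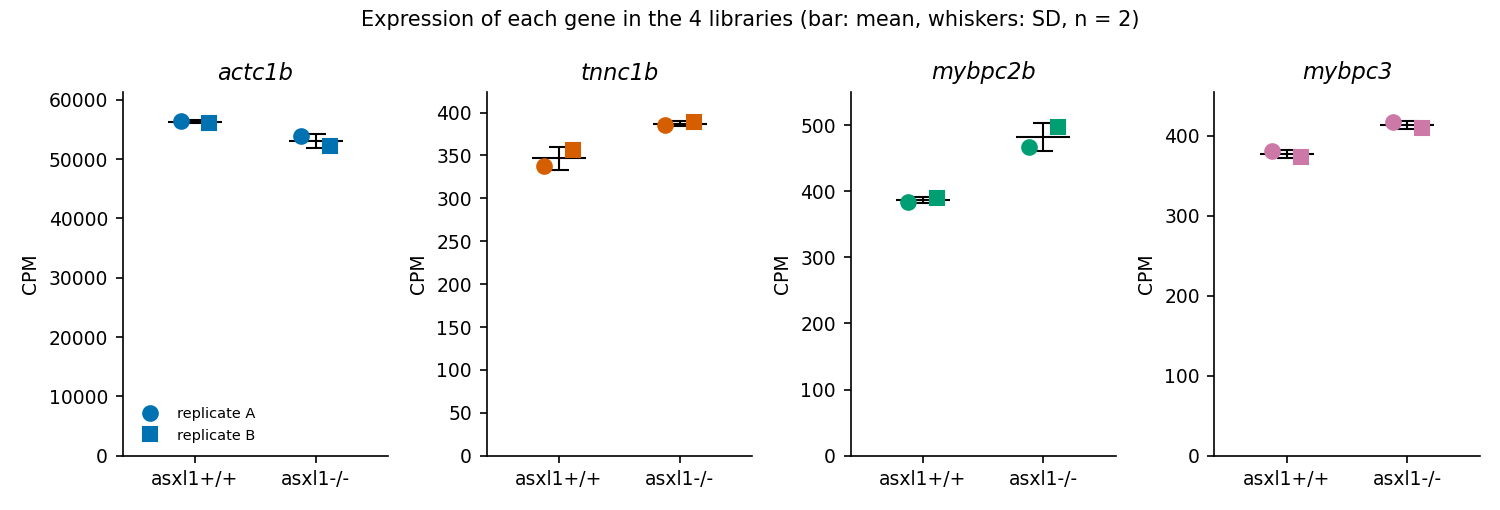
Expression in scaled counts (CPM, vertical axis from 0, a separate scale for each gene) in *asxl1*+/+ and *asxl1*-/- tails, with 1 point per library (circle for replicate A, square for replicate B), a bar at the mean and whiskers of 1 SD (n = 2). The *actc1b* points of *asxl1*-/- lie below those of *asxl1*+/+, and those of *tnnc1b*, *mybpc2b* and *mybpc3* lie above.

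*actc1b* (ENSDARG00000099197) encodes an alpha-actin, the subunit from which the thin filament is built. It lies on the minus strand of chromosome 17 from 117024 to 125091 (GRCz11), with 9 exonic blocks and 1773 exonic bases, and overlaps no other annotated gene. It had 56485 and 56128 CPM in *asxl1*+/+ replicates A and B, and 53878 and 52271 CPM in *asxl1*-/- replicates A and B. Both *asxl1*-/- libraries were below both *asxl1*+/+ libraries. The means were 56306 ± 252 and 53074 ± 1136 CPM (SD, n = 2), a log2 difference of −0.09 ± 0.03 (SE). Within replicate A the log2 difference was −0.07 and within replicate B −0.10. The 2 *asxl1*-/- libraries lay further from each other than the 2 *asxl1*+/+ libraries did, with B minus A at −0.04 and −0.01 on the log2 scale.

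*actc1b* was the most abundant gene of the table in CPM and also per length. It took 5.67% of all counts (95% Wilson interval 5.67 to 5.68) in *asxl1*+/+ replicate A and 5.55% (5.54 to 5.56) in replicate B. In *asxl1*-/- it took 5.45% (5.44 to 5.46) in replicate A and 5.18% (5.17 to 5.19) in replicate B. These intervals cover counting error only, which was at most 0.0981% of its count in any library. The distance between libraries of 1 genotype was thus larger than counting noise.

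The 7 other actin genes were found by symbol. Read pairs that mapped to several places were not counted, so levels of near-identical actin copies are uncertain. The values divided by exonic length (RPKM), which allow genes to be compared per length, placed *actc1b* at 31858, 31657, 30388 and 29482 in *asxl1*+/+ A, *asxl1*+/+ B, *asxl1*-/- A and *asxl1*-/- B. That was 82.6, 81.8, 81.9 and 81.3% of the summed actin RPKM of these libraries. The *asxl1*-/- A share lay just above that of *asxl1*+/+ B, so the shares of the genotypes overlapped although the CPM did not. The nearest actin per length, *ACTA1* (ENSDARG00000055618), a skeletal alpha-actin, had between 2526 and 2853 RPKM, with a log2 difference between the genotypes of −0.03 ± 0.06 (SE). The cytoplasmic actins *actb2* and *actb1*, present in every cell type, had log2 differences of −0.10 ± 0.04 and 0.04 ± 0.04. The further alpha-actins *ACTA1* (ENSDARG00000036371) and *actc1a* were at 0.09 ± 0.05 and 0.07 ± 0.06. The low-level *actc1c*, of 1.84 to 3.29 RPKM, was at 0.42 ± 0.23, and the smooth muscle actin *acta2* at −0.18 ± 0.16. Of the 7 other actins, 4 were higher and 3 lower in *asxl1*-/- and 0 were called by the quasi-likelihood test, the exact test or DESeq2, with 1 at an unadjusted p under 0.05.

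*tnnc1b* (ENSDARG00000037539) encodes the troponin C type of slow skeletal and cardiac muscle, the calcium sensor of the thin filament. It lies on the plus strand of chromosome 23 from 20110086 to 20112596, with 6 exonic blocks and 874 exonic bases, and overlaps no other gene. It had 337 and 356 CPM in *asxl1*+/+ replicates A and B, and 385 and 389 CPM in *asxl1*-/- replicates A and B. The genotypes did not overlap. The means were 347 ± 13.0 and 387 ± 2.64 CPM (SD, n = 2), 1.12 times higher in *asxl1*-/- with a log2 difference of 0.16 ± 0.06 (SE). It was 0.19 within replicate A and 0.13 within replicate B. Without *asxl1*+/+ replicate A, the lowest library, it was 0.12. The counts, 7569 to 9253 per library, carried a counting error of 1.04 to 1.15%.

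The fast skeletal troponin C gene *TNNC2* (ENSDARG00000070835) was far more abundant. It had 5200, 5461, 5333 and 5437 RPKM in *asxl1*+/+ A, *asxl1*+/+ B, *asxl1*-/- A and *asxl1*-/- B, against 386, 407, 441 and 445 RPKM of *tnnc1b*. *TNNC2* was 13.5 and 13.4 times as high as *tnnc1b* per length in *asxl1*+/+ replicates A and B, and 12.1 and 12.2 times as high in *asxl1*-/-. The log2 difference of *TNNC2* between the genotypes was 0.01 ± 0.04 (SE). Accordingly, *tnnc1b* made up 6.91 and 6.94% of the summed RPKM of the 4 troponin C genes in *asxl1*+/+ and 7.63 and 7.56% in *asxl1*-/-. These shares did not overlap between the genotypes, which is a description only, since *tnnc1b* was chosen from this contrast. A further troponin C gene, *tnnc2.1*, had at most 3.56 RPKM.

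Among all 19 other tested troponin genes, 9 were higher and 10 lower in *asxl1*-/-, with a median log2 difference of −0.03 beside 0.00 over all genes tested. None of the 19 was called by the quasi-likelihood test, the exact test or DESeq2, and 1 was higher and 1 lower at an unadjusted p under 0.05. The 6 tropomyosin genes, which lie along the actin of the same filament, had a median log2 difference of 0.05, with 0 called by any of these tests and 0 at an unadjusted p under 0.05.

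Because *tnnc1b* marks slow fibres, its level was set beside the slow muscle markers *smyhc1*, *smyhc2* and *smyhc3*, slow myosin heavy chains. The summed level of these 3 of 4 listed markers was 3860 and 3989 CPM in *asxl1*+/+ replicates A and B, and 3985 and 4480 CPM in *asxl1*-/-. These sums overlapped between the genotypes, and *asxl1*-/- replicate B was the highest. Most of the sum was *smyhc1*, at a log2 difference of 0.10. *smyhc2* had 388 and 389 CPM in *asxl1*+/+ and 413 and 441 CPM in *asxl1*-/- (0.14), and *smyhc3* had 26.01 and 29.1 CPM and then 33.3 and 32.7 CPM (0.26). These 2 markers did not overlap between the genotypes and were higher in *asxl1*-/-, as *tnnc1b* was. The median of the 3 was 0.14, with 0 called by the quasi-likelihood test, the exact test or DESeq2 and 2 higher at an unadjusted p under 0.05. Per length, *tnnc1b* was 0.689 and 0.701 times *smyhc1* in *asxl1*+/+ and 0.766 and 0.683 times in *asxl1*-/-. That ratio overlapped, the *asxl1*-/- replicate B value being the lowest of the 4. The part of a change in slow fibre content in the *tnnc1b* values was not tested.

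**Figure D2:**
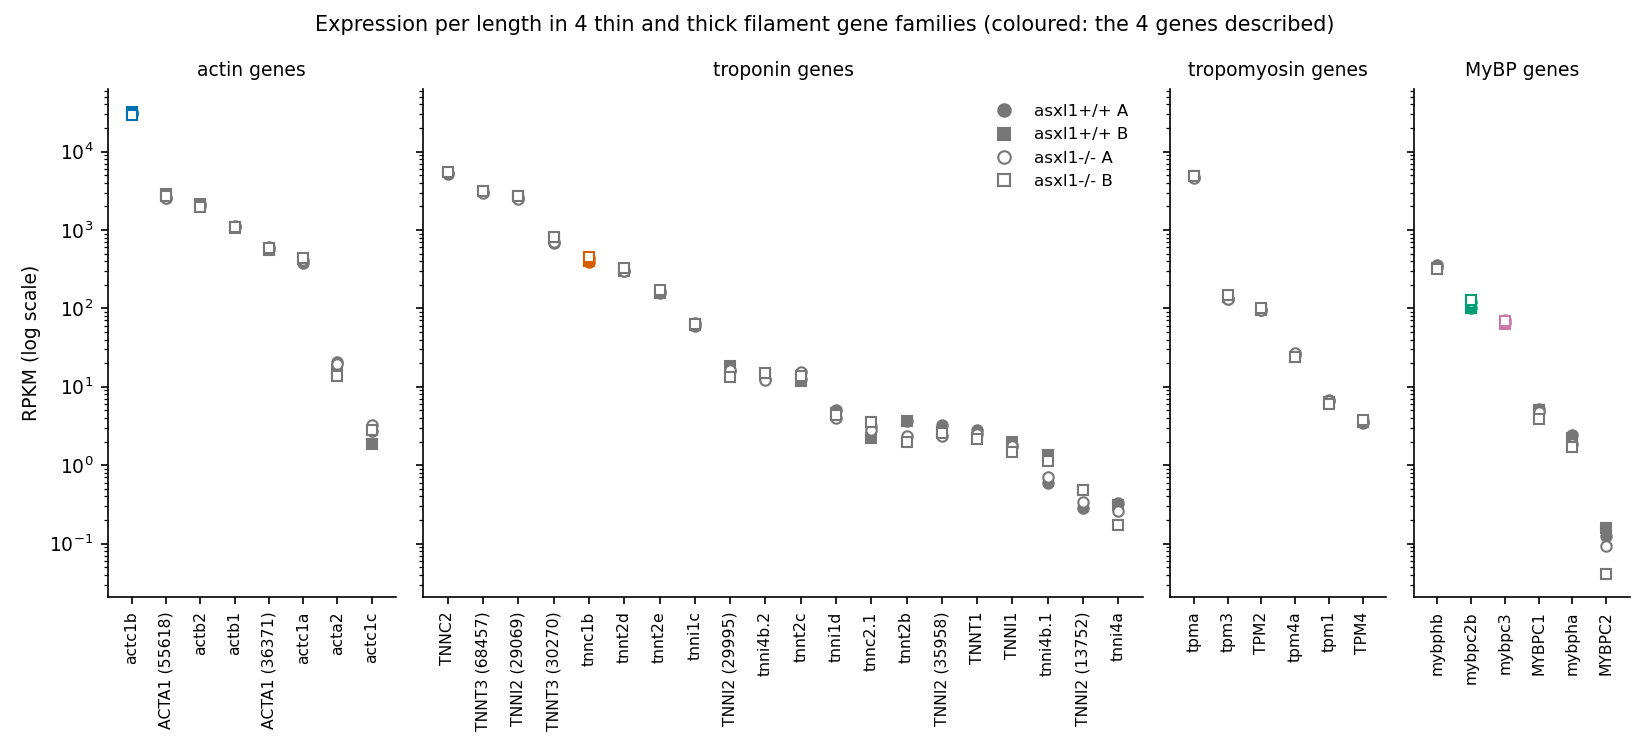
Expression per exonic length (RPKM, log scale) of each tested actin, troponin, tropomyosin and myosin-binding protein (MyBP) gene, ordered by mean within its family, with filled symbols for *asxl1*+/+, open symbols for *asxl1*-/-, circles for replicate A and squares for replicate B. Numbers in brackets are the end of the Ensembl identifier where genes share a symbol. *actc1b* (blue) leads the actins at 29482 to 31858 RPKM, *tnnc1b* (orange) lies below the fast troponin gene *TNNC2*, and *mybpc2b* (green) and *mybpc3* (pink) follow *mybphb*.

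*mybpc2b* (ENSDARG00000021265) encodes a MyBP-C of the fast skeletal type. It lies on the plus strand of chromosome 24 from 38301080 to 38348805, with 29 exonic blocks and 3847 exonic bases, and overlaps no other gene. It had 383 and 390 CPM in *asxl1*+/+ replicates A and B, and 467 and 497 CPM in *asxl1*-/- replicates A and B. The gap between the genotypes was wider than the gap within either. On the log2 scale the difference between the genotypes was the largest of the 4 genes. The means were 387 ± 4.58 and 482 ± 21.4 CPM (SD, n = 2), 1.25 times higher in *asxl1*-/- with a log2 difference of 0.32 ± 0.06 (SE). It was 0.28 within replicate A and 0.35 within replicate B.

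*mybpc3* (ENSDARG00000011615) is the gene named for the cardiac type of MyBP-C, the form of the mammalian heart. It lies on the plus strand of chromosome 7 from 31838320 to 31899925, with 37 exonic blocks and 5870 exonic bases, and overlaps no other gene. It had 381 and 374 CPM in *asxl1*+/+ replicates A and B, and 417 and 410 CPM in *asxl1*-/- replicates A and B. The genotypes did not overlap, and replicate A was slightly above replicate B in each. The means were 377 ± 5.03 and 414 ± 4.94 CPM (SD, n = 2), 1.097 times higher with a log2 difference of 0.13 ± 0.05 (SE). The difference was 0.13 within each letter, the closest match between letters of the 4 genes.

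The heart was looked for through 4 of 5 listed markers, since *mybpc3* and the troponin C type of *tnnc1b* are used there. *myl7*, the atrial and ventricular myosin light chain of the zebrafish heart, had 0 counts in every library, which allows at most 0.115 to 0.153 CPM per library at 3 counts. *nppa*, a natriuretic peptide gene of heart muscle, had at most 0.130 CPM, and *myh6* had 0.520 to 1.36 CPM. The summed heart marker level was 78.4 and 79.0 CPM in *asxl1*+/+ and 61.0 and 58.3 CPM in *asxl1*-/-, nearly all from *myh7*. The sum was lower in both *asxl1*-/- libraries and rested on *myh7* alone (log2 difference −0.41), while *myh6*, the other marker tested, was at 0.39 and overlapped between the genotypes. Neither was called by the quasi-likelihood test. The part of heart tissue in the *tnnc1b* and *mybpc3* values was not tested.

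Per length, *mybpc2b* exceeded *mybpc3* in every library, at 99.7 against 64.8 RPKM in *asxl1*+/+ A, 101 against 63.6 in *asxl1*+/+ B, 121 against 71.1 in *asxl1*-/- A and 129 against 69.9 in *asxl1*-/- B. The ratio of *mybpc2b* to *mybpc3* was 1.54 and 1.59 in *asxl1*+/+ replicates A and B, and 1.71 and 1.85 in *asxl1*-/-. These ratios did not overlap between the genotypes and have means of 1.57 ± 0.04 and 1.78 ± 0.10 (SD, n = 2). Both genes were chosen from the contrast between the genotypes, so the separation of their ratio is a description only. Of the summed RPKM of the 4 MyBP-C genes, *mybpc2b* held 58.7 and 59.5% in *asxl1*+/+ and 61.5 and 63.7% in *asxl1*-/-, and *mybpc3* held 38.2 and 37.4% and then 36.0 and 34.4%. *mybphb*, a MyBP-H gene and the most abundant of the wider family, had 356, 330, 337 and 319 RPKM in *asxl1*+/+ A, *asxl1*+/+ B, *asxl1*-/- A and *asxl1*-/- B. Its log2 difference was −0.07 ± 0.05 (SE), so the level of *mybphb* was 3.57 and 3.26 times that of *mybpc2b* in *asxl1*+/+ and 2.77 and 2.47 times in *asxl1*-/-. The slow-type *MYBPC1* (ENSDARG00000045560) was at −0.26 ± 0.12 with 16.5 to 22.3 CPM. All 4 tested genes of the family other than *mybpc2b* and *mybpc3* were below 0, with 0 called by the quasi-likelihood test, the exact test or DESeq2 and 1 at an unadjusted p under 0.05.

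The order of the 4 genes per length was *actc1b*, *tnnc1b*, *mybpc2b* and *mybpc3* in each library, and no 2 neighbours in that order overlapped. *actc1b* was 82.5 and 77.8 times *tnnc1b* in *asxl1*+/+ and 68.9 and 66.2 times in *asxl1*-/-. *tnnc1b* was 3.87 and 4.02 times *mybpc2b* in *asxl1*+/+ and 3.63 and 3.44 times in *asxl1*-/-. In CPM, which does not allow for length, they ranked 1st, 283rd, 236th and 261st of all genes.

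Replicates B were compared with replicates A over both genotypes, a contrast that did not enter the choice of the genes. The fit had no genotype term, so the genotype difference of the chosen genes adds to their spread within a letter. Its results for the 4 genes are thus not independent of how they were chosen. The quasi-likelihood test called 558 genes at an FDR below 0.05, or 2.79% of those tested, and 0 of the 4. The log2 difference of B minus A was −0.03 ± 0.03 (SE) for *actc1b*, 0.04 ± 0.06 for *tnnc1b*, 0.06 ± 0.10 for *mybpc2b* and −0.03 ± 0.06 for *mybpc3*. The adjusted p of edgeR's quasi-likelihood test was 0.769, 0.801, 0.820 and 0.878 in that order. With genotype as a covariate the adjusted p of that test was 0.492, 0.569, 0.417 and 0.782. That fit called 1703 genes and 0 of the 4. At an unadjusted p under 0.05 the count was also 0 of 4 beside 15.6% of all genes, and it was 0 by the exact test (4.06% of all genes) and by DESeq2 (1.29%). The letters overlapped in CPM for each of the 4 genes, and 46.1% of all genes had letters that did not overlap. Where the CPM of the genotypes do not overlap, the CPM of the letters must overlap. For the 4 genes this outcome was therefore fixed, and it tells nothing about the letters. A p that misses the threshold does not show that the letters were alike.

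Several filament genes did differ between the letters. Of the 36 tested actin, troponin, tropomyosin and myosin-binding protein genes other than the 4, 2 were called higher in B and 1 lower. The one lower was *acta2*, at −0.40 ± 0.08 (SE) on the log2 scale with an adjusted p of 0.0160 by the quasi-likelihood test. The fast myosin heavy chain markers *myhz1.1* and *myhz1.3*, the only 2 of 5 listed fast muscle markers that could be paired, were both called higher in B. Their summed level was 35594 and 34076 CPM in replicates A of *asxl1*+/+ and *asxl1*-/-, and 38984 and 39037 CPM in replicates B. For *mybpc2b*, the fast type, replicate B was 0.02 above replicate A in *asxl1*+/+ and 0.09 above in *asxl1*-/- on the log2 scale. The part of fibre type content in these letter differences was not tested.

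**Figure D3:**
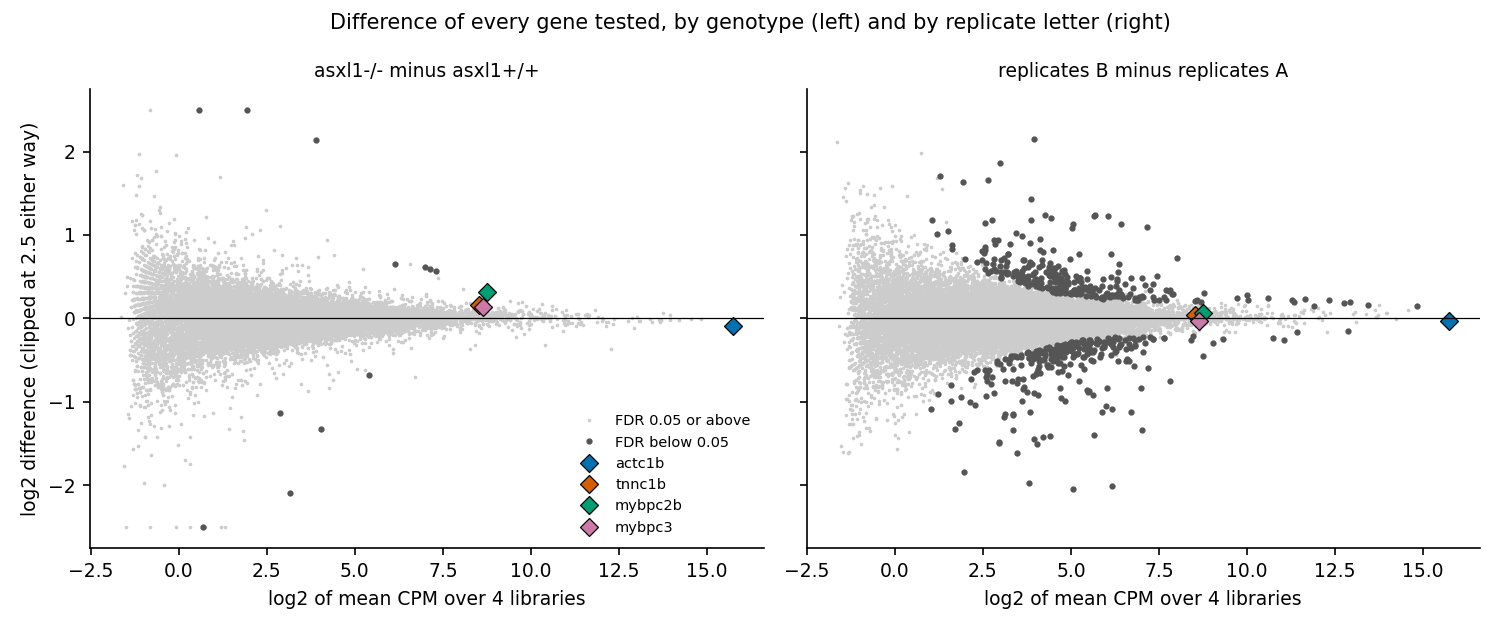
The log2 difference of each of the 19970 genes tested against the log2 of its mean CPM, for *asxl1*-/- minus *asxl1*+/+ (left) and replicates B minus replicates A (right), with genes of an FDR below 0.05 in dark grey (12 left, 558 right), the 4 genes as coloured diamonds, and values beyond 2.5 drawn at 2.5. *mybpc2b* lies highest of the 4 on the left at 0.32, and all 4 lie within 0.06 of 0 on the right.

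Over the actin, troponin, tropomyosin and myosin-binding protein families without the 4 genes, the median log2 difference between the genotypes was −0.02, with 17 of 36 tested genes higher and 19 lower. None was called by the quasi-likelihood test, the exact test or DESeq2, and 1 was higher and 3 lower at an unadjusted p under 0.05. The 25 such genes of at least 10 CPM ranged from −0.26 to 0.24 on the log2 scale, with standard errors of 0.04 to 0.16. *mybpc2b* was above that range, and *tnnc1b*, *mybpc3* and *actc1b* were inside it. The 4 genes were chosen from this contrast and the 25 were not, so these places are a description only. The range also depends on the cut at 10 CPM. Below it, *actc1c* was at 0.42, above *mybpc2b*, and *MYBPC2* (ENSDARG00000030157) was at −1.06.

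**Figure D4:**
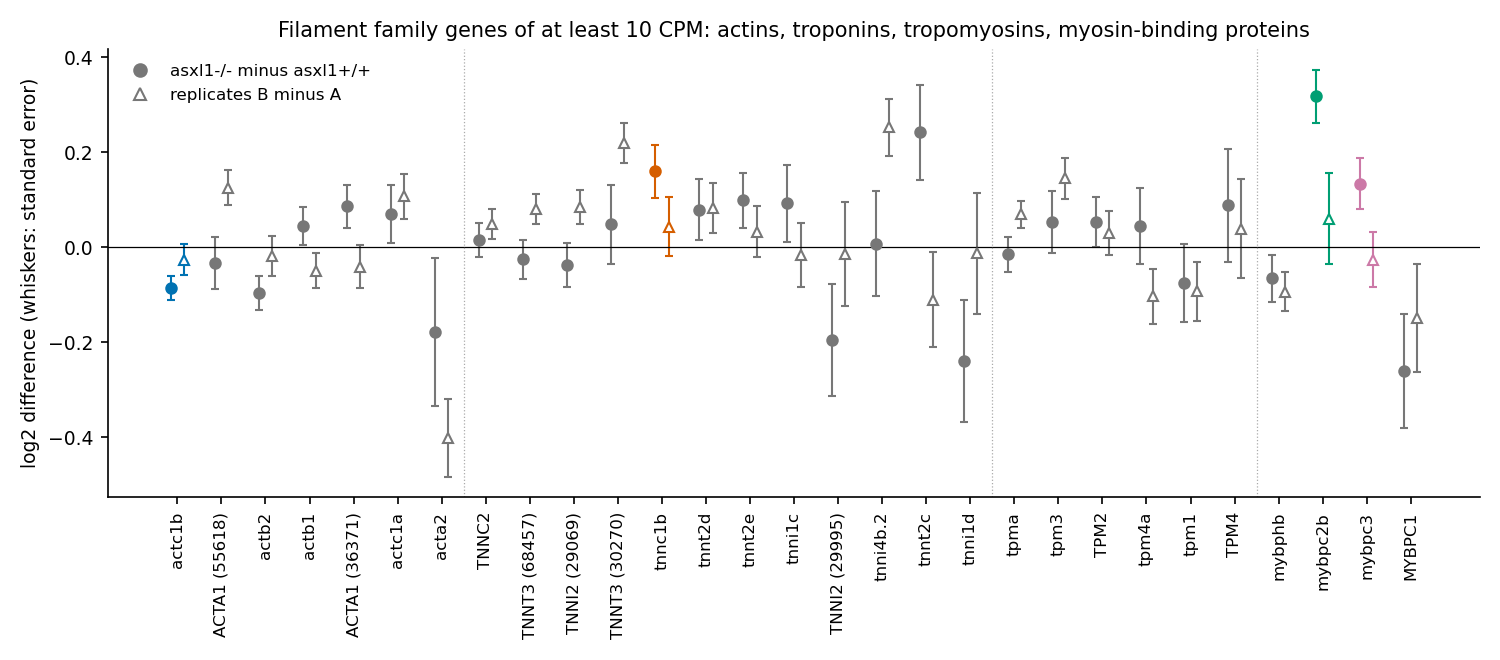
The log2 difference between the genotypes (filled circles) and between the letters (open triangles), with standard errors as whiskers, for the filament family genes of at least 10 CPM, split by dotted lines into actins, troponins, tropomyosins and myosin-binding proteins and ordered by RPKM within each. Numbers in brackets are the end of the Ensembl identifier. *mybpc2b* (green) has the highest difference between the genotypes at 0.32, and the 25 other genes (grey) lie between −0.26 and 0.24.

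A wider set of sarcomere genes was listed by symbol in 7 lists (actins, troponins, tropomyosins, thin filament length, myosin-binding proteins, sarcomeric myosins, and Z-disc and titin). Of 103 listed genes other than the 4, 64 were paired with an identifier and 62 tested. The quasi-likelihood test called 1 higher and 0 lower, beside 0.0601% of all genes tested. At an unadjusted p under 0.05, 12 were higher and 7 lower, beside 3.08% of all genes. The exact test and DESeq2 called 2 each, beside 0.265% and 0.135% of all genes. The median log2 difference was 0.04, beside 0.00 over all genes, with 38 higher and 24 lower. The gene called was *tcap*, whose product caps titin at the Z-disc. It was named after its values were seen. It had 7.54 and 3.58 CPM in *asxl1*+/+ replicates A and B, and 25.2 and 23.3 CPM in *asxl1*-/-, a log2 difference of 2.14 (adjusted p = 0.0211 by the quasi-likelihood test). The genotypes were far apart, although *tcap* was at a much lower level than any of the 4 genes. The 15 tested genes of the Z-disc and titin list, none of them titin itself, had a median of 0.10, with 13 higher, *tcap* among them. All 7 lists were drawn up with earlier results of these data known. Their counts by direction are therefore a description only. The 7 tested genes of thin filament length, such as nebulin and tropomodulins, had a median of 0.02 with 0 called by any of these tests and 0 at an unadjusted p under 0.05.

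Other cell types of the tail were followed through their markers. The 3 epidermal keratinocyte markers summed to 29437 and 30811 CPM in *asxl1*+/+ replicates A and B and to 28187 and 29264 CPM in *asxl1*-/-, lower in both mutant libraries. Most of this sum was *krt4*, which overlapped between the genotypes at a log2 difference of −0.01. The other 2 did not overlap and went opposite ways. *krt5*, a basal keratin, had 5877 and 5323 CPM in *asxl1*+/+ and 4602 and 4072 CPM in *asxl1*-/- (log2 difference −0.37), and *icn* had 272 and 303 CPM and then 325 and 326 CPM (0.18). None of the 3 was called by the quasi-likelihood test, the exact test or DESeq2, and 1 was higher and 1 lower at an unadjusted p under 0.05. The 2 of 3 erythrocyte markers that could be paired summed to 118 and 86.1 CPM in *asxl1*+/+ and 130 and 117 CPM in *asxl1*-/-. The 3 neutrophil markers summed to 68.9 and 80.0 CPM in *asxl1*+/+ and 60.6 and 50.7 CPM in *asxl1*-/-, lower in both mutant libraries. All 3 were lower at an unadjusted p under 0.05 by the quasi-likelihood test. At the FDR threshold, that test and DESeq2 called 0 of them and the exact test called 1. The part of these cell types in the values of the 4 genes was not tested.

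The genes lie on 4 chromosomes, and *tnnc1b* shares chromosome 23 with *asxl1*, 10.6 Mb away. Within 1 Mb on either side of *tnnc1b*, 46 genes were tested, 1 was called by the quasi-likelihood test and 10 had an unadjusted p under 0.05. Around *actc1b* these numbers were 28, 0 and 1, around *mybpc2b* 49, 0 and 1, and around *mybpc3* 29, 0 and 0. Around *asxl1* itself they were 36, 0 and 13. Over all genes tested, 3.08% had an unadjusted p under 0.05 by the quasi-likelihood test. The gene called near *tnnc1b* was *arhgef3l*, at 557 kb, which is named after its values were seen. Its *asxl1*+/+ mean was 14.4 ± 0.295 CPM and its *asxl1*-/- mean 3.37 ± 0.348 CPM (SD, n = 2), a log2 difference of −2.09 ± 0.15 (SE) with an adjusted p of 0.000740 by edgeR's quasi-likelihood test. *TNNC2*, which was at 0.01, lies nearer, at 310 kb. Littermates of an intercross differ by genotype at *asxl1* and at alleles linked to it, and the part of linkage in the *tnnc1b* values cannot be told apart from that of the *asxl1* genotype here.

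The likeness of profiles was described by the root mean square distance of log2 CPM, each gene centred on its mean over the 4 libraries, among 9235 named genes of at least 10 CPM. Nearest to *actc1b* were *ZRANB2* (0.00521) and *relb* (0.00568), and nearest to *tnnc1b* were *TMED3* (0.00471) and *socs5a* (0.00702). For *mybpc3* they were *cav3* (0.00417), which encodes the muscle caveolin, and *FREM2* (0.00464). *mybpc2b* had no neighbour as close, its nearest being *si:ch211-226m16.2* (0.0203) and *c1qtnf12* (0.0239). With 4 libraries and 9235 genes, small distances arise for many genes, and none of the 4 genes was among the nearest of another.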

How the data were processed

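RNA was extracted from pooled tails. The labels describe total RNA, and the study's methods describe poly-A selection. The authors mapped read pairs to GRCz11 with STAR, counted them with featureCounts 1.6.4 on the exons of Ensembl release 96, without strand and without pairs that mapped to several places or genes, and deposited raw counts with no normalization. Genotype and letter were taken from the labels, and no per-sample column was left unmapped (0). Names came from the study's table, whose fold changes and p-values were not used, and from a symbol table. From the deposited counts, edgeR 4.0.16 (run under R 4.3.3) was used for filterByExpr by genotype, TMM scaling and quasi-likelihood tests of genotype alone and of letter alone, with Benjamini-Hochberg adjustment over 19970 genes and an FDR threshold of 0.05. The SE of a log2 difference is its size over the square root of the F statistic. CPM used TMM-scaled totals, and RPKM divided CPM by exonic length in units of 1000 bases. Alternatives were edgeR's exact test, the other factor as a term, DESeq2 1.42.0, no TMM, scaling without the top 10 genes, other count filters, an FDR threshold of 0.01 and each library left out. An exact permutation test of 2 against 2 libraries cannot go below p = 0.333 (two-sided). The quasi-likelihood test, the exact test, the fit with the other factor and DESeq2 were also run on simulated counts. Those counts were drawn without an effect of the other factor. The remaining alternatives were not run on simulated counts. The genes named are the 4 described, up to 12 genes of their protein families, the cell type markers, and the 2 named genes of at least 10 CPM nearest in profile to each. The genes and lists were chosen with earlier results of these data known. Of 138 listed symbols, 90 were paired with an identifier. Chi-square per degree of freedom between libraries was 2.93 to 6.13, so none was a repeat of another. The precision is limited by 2 libraries per genotype. Tables used pandas 2.3.3 and SciPy 1.17.1 and figures matplotlib 3.10.9, all under Python 3.11.15.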

Additional observations from a re-analysis of the deposited data

How the results depend on the processing

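With 2 libraries per genotype, counts of called genes moved with the method. Genes called between the genotypes numbered 12, against 53 by edgeR's exact test, 27 by DESeq2, 19 with no filter beyond 1 count in total, 2 at an FDR below 0.01, and 9 to 80 with a library left out, where the lone library of a group is assumed to vary like the others. With the replicate block they numbered 301, the 4 genes included. Libraries of a letter deviated together from the genotype means (correlation 0.380 over 19970 genes), but only 2 pairs exist and the labels do not say what they share. Genes called between the letters numbered 558, against 1703 with genotype as a covariate, 258 by DESeq2, 1084 with no filter, 247 at an FDR below 0.01 and 234 to 523 with a library left out. The differences between the genotypes kept their direction in all 11 alternatives run. Leaving out a library could hardly reverse them, since the CPM of the genotypes did not overlap in any of the 4 genes. The other alternatives used the same counts, and the genes were chosen from this contrast, so the kept direction is a description only. With a library left out, *actc1b* was between −0.11 and −0.06 on the log2 scale and *tnnc1b* between 0.12 and 0.20. For *mybpc2b* the range was 0.27 to 0.36 and for *mybpc3* 0.12 to 0.15. The differences between the letters changed sign: *actc1b* ranged from −0.078 to 0.025 with a library left out, *tnnc1b* from −0.042 to 0.14, *mybpc2b* from −0.12 to 0.23 and *mybpc3* from −0.094 to 0.043. None was called under any alternative (lowest adjusted p = 0.232, *mybpc2b* without *asxl1*+/+ replicate B, edgeR's quasi-likelihood test). With a library left out, 1 letter holds a single genotype, and the fit of the letters has no genotype term. Those letter differences therefore mix letter with genotype, and their sign changes do not measure how stable the letter difference is. The part of genotype in them was not tested.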
